A study of Arabidopsis thaliana with 30 samples.

Results

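The response of a root to forced pairing of the receptor RGI5 with its co-receptor BAK1 was set against the response to forced pairing of RGI1 with BAK1. The comparison used 12 of the 30 libraries of the series, in 4 groups of 3, chosen by genotype and treatment as the labels give them. The RGI5 line (RiD-RGI5/BAK1) was given 100 nM rapamycin (replicates 1, 2 and 3) or mock (replicates 1, 2 and 4). The RGI1 line (RiD-RGI1/BAK1) was given 1 µM rapamycin (replicates 1, 2 and 3) or mock (replicates 1, 3 and 4). All were roots of Arabidopsis thaliana of the Col-0 ecotype, taken from seedlings 7 days after germination and treated for 4 h at 23 °C, with polyA RNA sequenced after a stranded library preparation. Each line had its own set of wild-type Col-0 roots given the same dose of rapamycin or mock, and these 12 wild-type libraries are used where stated. The sample titles name the mock treatment DMSO in the lines and in these wild types. The dose differed with the line, and so did the set, meaning a line with its wild type as the sample titles group them. The titles do not say if the sets were also made apart. Line, dose and set cannot be told apart in a difference between the responses. The labels do not give the promoter of either transgene, the number of independent transformants behind a line, or if the replicates were grown apart, and the p-values therefore reflect only how far these samples varied, which may be technical.

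RGF peptides are secreted signals of the root tip, and the RGI proteins are leucine-rich repeat receptor kinases that bind them at the cell surface. On binding, an RGI pairs with a co-receptor of the SERK family such as BAK1, and the kinase domains then signal through a MAP kinase cascade to transcription factors such as RITF1 and the PLETHORA proteins, which set the size of the meristem. In a rapamycin-induced dimerization line the small molecule brings the engineered receptor and the engineered co-receptor together, so that signalling can be started without the peptide.

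Levels are given as TPM, the length-scaled share of a transcript in its library, from which the number of reads behind a value cannot be recovered, and the depth is therefore unknown. Each of the 12 libraries held between 18999 and 19214 genes at 1 TPM or more. RGI1 (AT3G24240) averaged 24.3 and 25.8 TPM in the RGI5 line under rapamycin and mock, at 228.4 and 204.2 TPM in the RGI1 line, and between 26.8 and 32.7 TPM in the wild-type libraries. RGI5 (AT1G34110) stood at 49.3 and 47.0 TPM in the RGI5 line, at 2.20 and 2.23 TPM in the RGI1 line, and between 2.01 and 3.63 TPM in wild type, which matched the labels. BAK1 (AT4G33430) stood at 116.8 ± 3.7 TPM (mean ± SD, n = 3) under rapamycin and 105.2 ± 7.8 TPM under mock in the RGI5 line, and at 200.5 ± 9.4 and 183.1 ± 2.7 TPM in the RGI1 line, so the lines also differed in how much BAK1 transcript they carried. Native and engineered copies are counted together here. The hair cell expansin EXPA18 averaged between 59.8 and 82.3 TPM in the 4 groups, while 19 photosynthesis genes that mark green shoot tissue summed to between 106.9 and 219.3 TPM per library, with no more than 4 of them at 0. Those sums ran from 106.9 to 219.3 TPM in the RGI5 line with rapamycin, from 147.7 to 208.6 with mock, from 120.0 to 188.6 in the RGI1 line with rapamycin and from 145.5 to 173.0 with mock.

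The main comparison asked, gene by gene, whether rapamycin minus mock in the RGI5 line differed from rapamycin minus mock in the RGI1 line. A positive difference means a higher response in the RGI5 line. The values are log2(TPM + 1), tested with limma in a fit of the 12 libraries, and a gene was called at a Benjamini-Hochberg adjusted p under 0.05. The test called 2 of 19610 genes, or 0.0102%, AT3G26539 with a positive difference (0.0051%) and AT1G76728 with a negative one (0.0051%). Both encode products annotated as uncharacterized. At an unadjusted p under 0.05 there were 1897 genes (9.67%), these 2 included. The median standard error of a difference was 0.14, and the 95% confidence interval reached 0.30 to either side of the estimate for the median gene, before any adjustment. The adjusted test is less sensitive than that interval, and the smaller of the 2 called differences was 1.81.

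**Figure D1:**
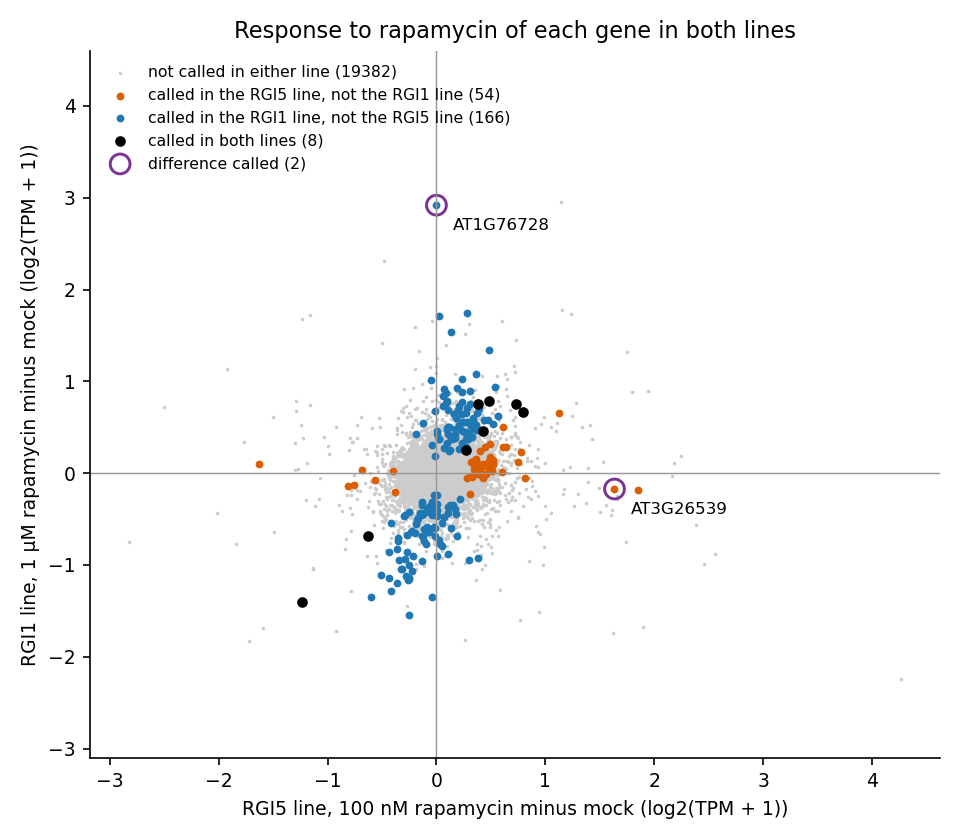
Response of each of the 19610 genes tested, as rapamycin minus mock on the log2(TPM + 1) scale, in the RGI5 line (x axis, 100 nM) and the RGI1 line (y axis, 1 µM). Coloured points are genes called in 1 line or in both, and rings mark the 2 genes called in the test of the difference, AT3G26539 and AT1G76728. The 8 genes called in both lines lie where both responses have the same sign.

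AT3G26539 stood at 20.6, 25.4 and 33.3 TPM in the RGI5 line with rapamycin, against 8.83, 7.69 and 6.66 TPM with mock. In the RGI1 line it stood at 23.9, 24.3 and 30.2 TPM with rapamycin, against 32.1, 25.4 and 31.2 TPM with mock. The mock libraries of the RGI5 line thus stood alone at the low end, and the other 3 groups overlapped one another. The responses were 1.63 (SE 0.16, adjusted p = 0.00494) in the RGI5 line and -0.17 (SE 0.16, adjusted p = 0.808) in the RGI1 line, a difference of 1.81 (SE 0.22, adjusted p = 0.0338). In wild type the gene varied widely: 9.63, 22.1 and 20.4 TPM with 100 nM rapamycin against 66.4, 24.4 and 51.3 TPM with mock, and 38.4, 38.1 and 23.4 TPM with 1 µM against 21.2, 29.9 and 21.5 TPM with mock. The call held in 3 of the 12 fits that each left out 1 library, and the adjusted p was 0.547 when all 30 libraries shared a fit.

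AT1G76728 was listed at 0 in all 6 libraries of the RGI5 line. In the RGI1 line it stood at 6.46, 6.78 and 6.44 TPM with rapamycin and was listed at 0 in the 3 mock libraries. Of the 12 wild-type libraries, mock replicate 3 of the RGI1 set had 3.36 TPM and the other 11 had 0. The difference was -2.92 on the log2(TPM + 1) scale, which is not a fold change, since the gene was listed at 0 on the other side, and it was -6.06 with a pseudocount of 0.1 and -1.21 with 5. An exact 0 in such a file can be a failed estimate. The gene passed the low-value filter only through the 3 libraries in which it is high, and the spread behind its test comes from groups of exact zeros, so its p-value is not evidence of a difference. Without any 1 of those 3 libraries it was not tested and no gene at all was called, and with the replicate number within each set as a block its limma adjusted p was 0.262.

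Between the called genes and the rest stood SULTR1;1, a high-affinity sulfate transporter of the root. It stood at 9.40, 9.91 and 8.55 TPM in the RGI5 line with rapamycin, against 12.2, 10.3 and 11.2 TPM with mock. In the RGI1 line it stood at 4.07, 3.70 and 3.94 TPM with rapamycin, against 8.87, 10.3 and 10.2 TPM with mock. Every treated library of the RGI1 line lay below every other library of either line. The rule that named this gene and those next in order asked for treatment groups without overlap in a line. A lack of overlap in these genes is therefore no further support. The response was -0.25 (adjusted p = 0.193) in the RGI5 line and -1.14 (adjusted p = 0.000132) in the RGI1 line, and the difference of 0.89 (SE 0.12) missed the threshold at an adjusted p of 0.0548. Its wild-type responses were -0.11 at 100 nM and -0.06 at 1 µM.

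The genes next in order did not pass the test of the difference either. TOPP5, a type one protein phosphatase, was called higher in the RGI5 line (20.07 ± 0.75 TPM with rapamycin, 16.02 ± 0.56 with mock, response 0.31, adjusted p = 0.0401) and had a response of -0.22 in the RGI1 line (adjusted p = 0.0819), with a difference of 0.53 (adjusted p = 0.065). AT3G62450, annotated as a DNA mismatch repair protein, was called higher in the RGI5 line (167, 167 and 174 TPM with rapamycin against 123, 115 and 119 TPM with mock) and stood at 172 to 178 TPM with rapamycin and 160 to 183 TPM with mock in the RGI1 line, for a difference of 0.48 (adjusted p = 0.133). Wild-type libraries ran from 95.2 to 168 TPM in the RGI5 set, a range that held the mock group of the RGI5 line. They ran from 177 to 195 TPM in the RGI1 set. Among the 4 groups of the lines alone, the mock group of the RGI5 line stood apart in AT3G62450, as in AT3G26539. The F-box gene AT1G47915, named after its values were seen, had the same shape: it averaged 2.99 ± 2.1 TPM with rapamycin and was listed at 0 in the mock libraries of the RGI5 line, and averaged 2.71 ± 0.48 and 3.25 ± 0.93 TPM in the RGI1 line (adjusted p of the difference 0.19).

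In CKX4 it was the mock group of the RGI1 line that stood apart. CKX4, a cytokinin oxidase that breaks down cytokinin, stood at 12.5, 13.5 and 15.4 TPM with rapamycin and at 12.9, 11.7 and 14.96 TPM with mock in the RGI5 line. It stood at 10.098, 12.01 and 11.6 TPM with rapamycin in the RGI1 line, against 6.18, 5.50 and 5.78 TPM with mock. The mock libraries of the RGI1 line lay below all others, those of wild type included, which ran from 9.30 to 20.15 TPM. CKX4 was called in the RGI1 line (0.84, adjusted p = 0.00573), and the difference was -0.78 (adjusted p = 0.157). NSP3, a nitrile specifier protein of glucosinolate breakdown, was called in neither line, with responses of 0.57 and -0.59 and a difference of 1.16 (adjusted p = 0.156). The locus AT4G06477, annotated as uncharacterized, was called lower in the RGI5 line (6.51, 5.07 and 2.28 TPM with rapamycin against 16.4, 15.4 and 14.5 TPM with mock), and stood at no more than 0.249 TPM in the RGI1 line, with a difference of -1.73 (adjusted p = 0.157). Its wild-type libraries stood at 5.64 to 15.64 TPM in the RGI5 set and at no more than 0.215 TPM in the RGI1 set. The locus was thus near the floor in the whole RGI1 set, and the difference came almost wholly from the RGI5 line. In wild type the response at 100 nM was 0.83, opposite to that of the RGI5 line. The remaining genes that the rule named here, AT5G01210, AT3G07010, AT5G19290 and TBL39, had differences between -0.44 and 0.50 and adjusted p between 0.133 and 0.189.

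**Figure D2:**
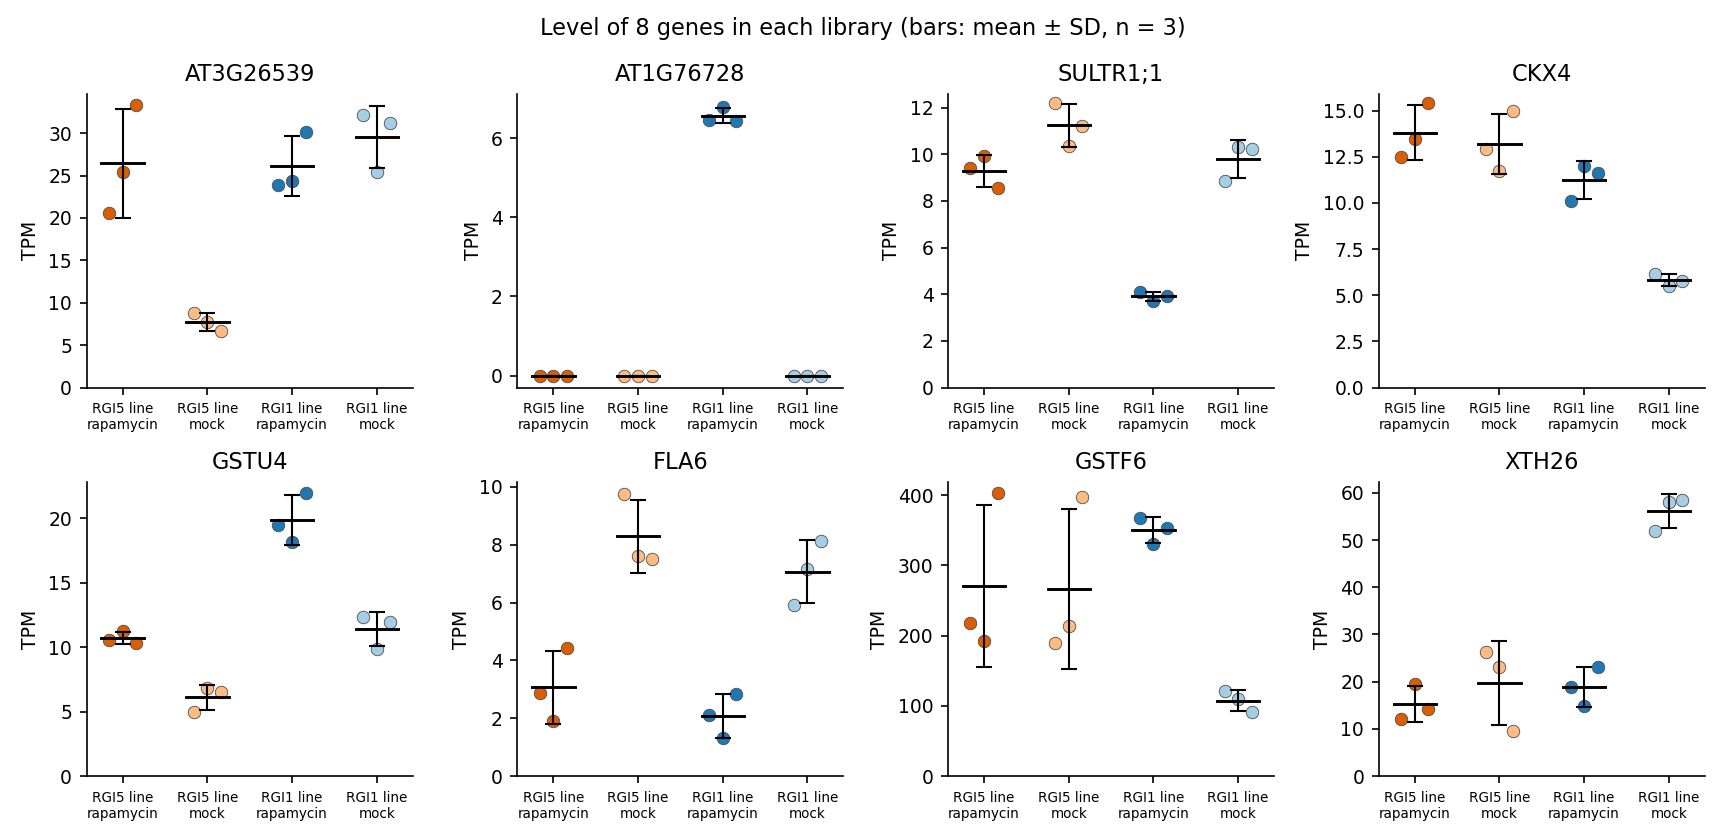
Level of 8 genes in TPM in each library of the 4 groups, with the mean and SD of 3 libraries as bars. AT3G26539 is low in the mock libraries of the RGI5 line alone, AT1G76728 is above 0 in the treated libraries of the RGI1 line alone, GSTU4 and FLA6 show the same direction in both lines, and GSTF6 and XTH26 differ between treatments in the RGI1 line, while their groups in the RGI5 line overlap.

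Each line was next read by itself, in the same fit. Rapamycin called 62 genes in the RGI5 line (0.316% of genes tested), 53 higher (0.27%) and 9 lower (0.0459%). It called 174 genes in the RGI1 line (0.887%), 87 higher and 87 lower (0.444% each). The lists met in 8 genes, which are 12.9% of the genes called in the RGI5 line and 4.6% of those called in the RGI1 line, and all 8 had the same direction in both. No gene was called in opposite directions. Over all genes tested the responses had a Pearson correlation of 0.11 and a Spearman correlation of 0.13, which is a description across genes of 2 estimates from separate libraries that share the fit. After quantile normalization the split of higher and lower calls was 15 and 12 in the RGI5 line and 82 and 118 in the RGI1 line, and after median-ratio scaling 11 and 10, and 75 and 113. Without mock replicate 2 of the RGI5 line 3 genes were called in that line, and without mock replicate 4 of the RGI1 line 10 were called in that one. In a fit of the RGI5 set with its own wild type no gene was called in the RGI5 line, with 2174 at an unadjusted p under 0.05, and the same kind of fit called 796 in the RGI1 line. The fit of the 12 libraries gave both lines a shared spread for each gene. The median SD over genes was 0.118 with rapamycin and 0.105 with mock in the RGI5 line. It was 0.099 and 0.078 in the RGI1 line, so the counts of 62 and 174 rest on a spread that was not equal. The number of genes called in both lines was 1 after quantile normalization or median-ratio scaling, and lay between 0 (without mock replicate 2 of the RGI5 line or mock replicate 3 of the RGI1 line) and 21 (without mock replicate 4 of the RGI5 line) in the fits without a library.

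Of the 6 genes called higher in both lines, 3 encode enzymes that attach glutathione or a sugar to small molecules, GSTU4, GSTU1 and UGT73B4. The tau glutathione transferase GSTU4 stood at 10.5, 11.2 and 10.3 TPM with rapamycin and at 4.99, 6.83 and 6.48 TPM with mock in the RGI5 line, and at 19.5, 18.16 and 21.95 against 12.3, 9.89 and 11.9 TPM in the RGI1 line. Treated and mock libraries did not overlap in either line, and the responses were 0.73 (adjusted p = 0.0247) and 0.75 (adjusted p = 0.0128), with a difference of -0.03 (95% confidence interval -0.37 to 0.32). The glycosyltransferase gene UGT73B4 stood at 17.399, 17.2 and 13.7 TPM against 8.69, 8.29 and 9.57 TPM in the RGI5 line, and at 10.2, 10.3 and 12.2 against 6.55, 6.60 and 6.36 TPM in the RGI1 line, with responses of 0.79 and 0.66. The 3 treated libraries again lay above the 3 mock libraries in each line. Genes called in both lines were chosen by a test on these same libraries, so a lack of overlap in them is no further support. GSTU1 had responses of 0.43 and 0.46, and AT4G01870, annotated as a tolB-like protein, 0.48 and 0.78. In wild type the responses of these 4 genes ran from 0.06 to 0.38 at 100 nM and from -0.23 to 0.10 at 1 µM, and none was called there.

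The 2 other genes called higher in both lines are regulators. FKF1, a blue-light receptor of the circadian system, had responses of 0.39 (adjusted p = 0.048) in the RGI5 line and 0.75 (adjusted p = 0.000655) in the RGI1 line. Wild type showed the same direction, with 0.43 at 100 nM (adjusted p = 0.0651) and 0.65 at 1 µM, where FKF1 was the 1 gene called (adjusted p = 0.00945). MAF1, a MADS-box repressor of flowering, had 0.27 and 0.25 in the lines and -0.14 and -0.10 in wild type.

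Lower in both lines were a wall protein and a secreted protein. FLA6, a fasciclin-like arabinogalactan protein, stood at 2.87, 1.92 and 4.41 TPM with rapamycin in the RGI5 line, against 9.75, 7.63 and 7.51 TPM with mock, and at 2.1, 1.33 and 2.85 TPM against 5.93, 7.16 and 8.13 TPM in the RGI1 line. The groups did not overlap in either line, which is no further support in a gene chosen by its calls in both. The responses were -1.23 (limma adjusted p = 0.049) and -1.41 (limma adjusted p = 0.0164). AT4G25790, a gene of the CAP family of cysteine-rich secretory proteins, stood at 12.9 ± 0.47 against 20.6 ± 2.5 TPM in the RGI5 line and at 9.15 ± 0.87 against 15.4 ± 2.6 TPM in the RGI1 line, with responses of -0.63 and -0.69. FLA6 responded by 0.41 and -0.19 in wild type at 100 nM and 1 µM, and AT4G25790 by 0.02 and 0.06. All 8 lost the call in the RGI5 line in some of the fits without a library: UGT73B4 kept it in 11 of 12, GSTU4 in 7, and the other 6 in 1 to 3.

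The RGI5 line's list was marked by loci of the plastid genome. Over all genes tested 0.27% were called higher in the RGI5 line and 0.444% in the RGI1 line. Of 109 tested loci with plastid (ATCG) identifiers, 19 were called higher in the RGI5 line and 0 in the RGI1 line, with medians of 0.34 and 0.07, and -0.15 and -0.11 in wild type at 100 nM and 1 µM. These loci held 6.41 ± 0.25% of all TPM with rapamycin and 5.28 ± 0.17% with mock in the RGI5 line (SD, n = 3 each). In the RGI1 line they held 6.41 ± 0.31% with rapamycin and 6.02 ± 0.14% with mock, so that the treated groups were alike and the mock group of the RGI5 line was the low one. The wild types held 5.37 ± 0.19% with 100 nM and 6.04 ± 0.82% with mock, and 6.03 ± 0.35% with 1 µM and 6.27 ± 0.43% with mock. The difference of responses was above 0 for 95 of the 109, with a median of 0.23, and was called for 0. After quantile normalization 7 of the loci were called in the RGI5 line, and after median-ratio scaling 4. Most plastid transcripts lack a stable polyA tail, so their share in a polyA library depends on the RNA preparation as well as on the plastid. The non-coding RNA AT1G15405 alone held 6.23 ± 0.37% of TPM with rapamycin and 9.21 ± 0.61% with mock in the RGI5 line, and 9.84 ± 1.8% and 10.9 ± 0.28% in the RGI1 line. TPM of every other gene is relative to a total that includes these shares, and their part in the 62 calls of the RGI5 line was not tested.

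**Figure D3:**
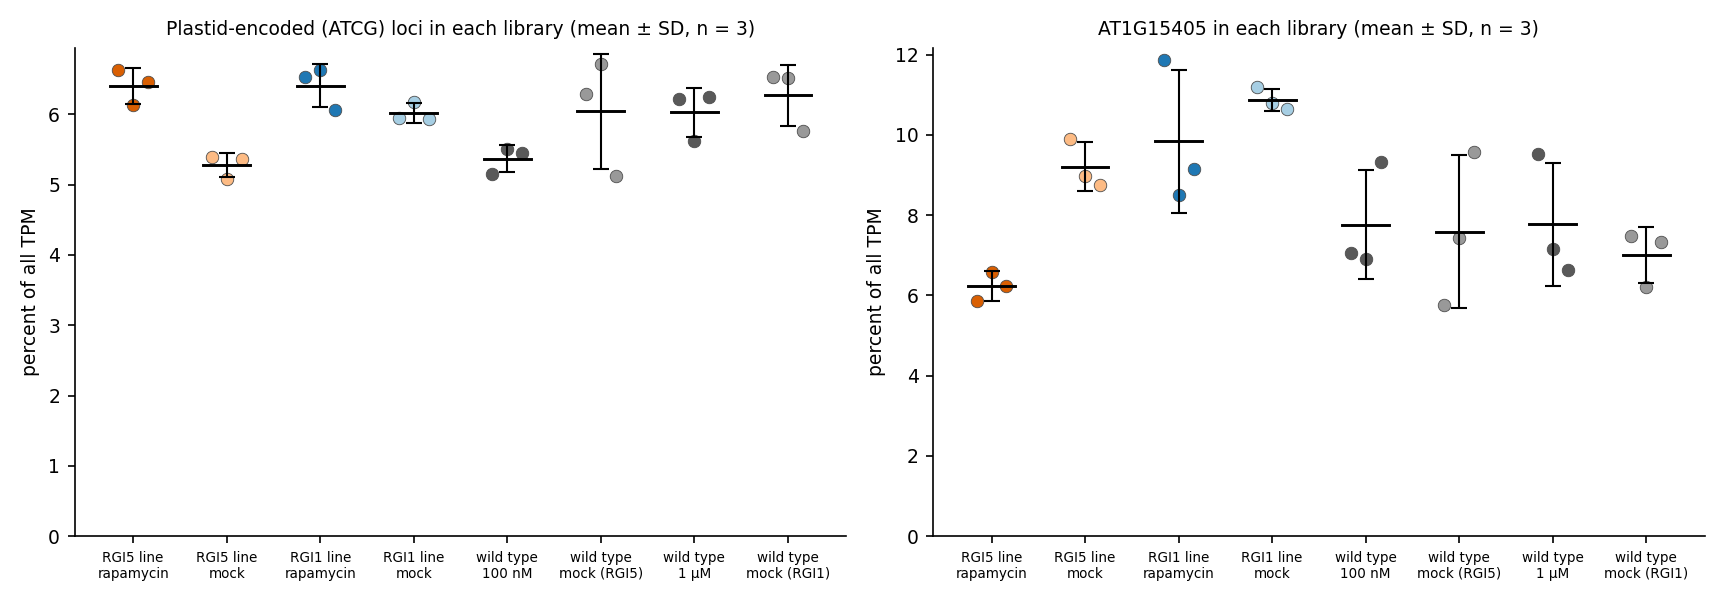
Percent of all TPM held by the plastid-encoded loci and by AT1G15405 in each library of the 8 groups, lines and wild types, with the mean and SD of 3 libraries. In the RGI5 line the mock group has the lower plastid share (5.28% beside 6.41%) and the higher share of AT1G15405 (9.21% beside 6.23%).

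Genes called in the RGI1 line were then read in the libraries of the RGI5 line, which had no part in choosing them apart from the shared estimate of spread. Of the 87 genes called higher in the RGI1 line, 80 had a response above 0 in the RGI5 line, where 69.1% of all genes tested did. Their median response was 0.23 in the RGI5 line, 0.55 in the RGI1 line, 0.06 in wild type at 100 nM and -0.02 in wild type at 1 µM. The medians of all genes were 0.06 in the RGI5 line, 0.03 in the RGI1 line, and close to 0 in wild type at 100 nM and at 1 µM (-0.01). With an unadjusted p under 0.05, 42 of them were higher in the RGI5 line and 0 lower, beside 13.7% and 2.81% of all genes. After quantile normalization, which brought the share of all genes above 0 to 49.7%, 71 of 82 were above 0, with a median of 0.17. With the replicate number within each set as a block only 5 genes were called higher in the RGI1 line and 3 of them were above 0.

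Among the 87 genes called lower in the RGI1 line, 64 had a response below 0 in the RGI5 line, where 30.9% of all genes did. The median was -0.12 in the RGI5 line, -0.63 in the RGI1 line, 0.04 in wild type at 100 nM and -0.04 at 1 µM. At an unadjusted p under 0.05, 25 were lower and 4 higher in the RGI5 line. After quantile normalization 96 of 118 were below 0, with a median of -0.14. Thus the genes chosen in the RGI1 line showed the same direction in the RGI5 line more often than genes at large, with medians that were closer to 0, and those chosen lists were near 0 in both wild types.

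The reverse reading was weaker. Of the 53 genes called higher in the RGI5 line, 41 were above 0 in the RGI1 line, where 61.2% of all genes were, with a median of 0.09 beside 0.03 for all genes. Without the 19 plastid-encoded loci among them it was 27 of 34, with a median of 0.13. Of the 9 called lower, 6 were below 0 in the RGI1 line. After quantile normalization 9 of 15 genes called higher in the RGI5 line were above 0 in the RGI1 line, beside 49.9% of all genes, and 5 of 12 called lower were below 0, beside 50.1%. After median-ratio scaling it was 6 of 11 and 4 of 10, so the counts were then near those of all genes. The called genes of the RGI5 line also had a median of -0.09 (higher) and 0.03 (lower) in wild type at 100 nM.

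**Figure D4:**
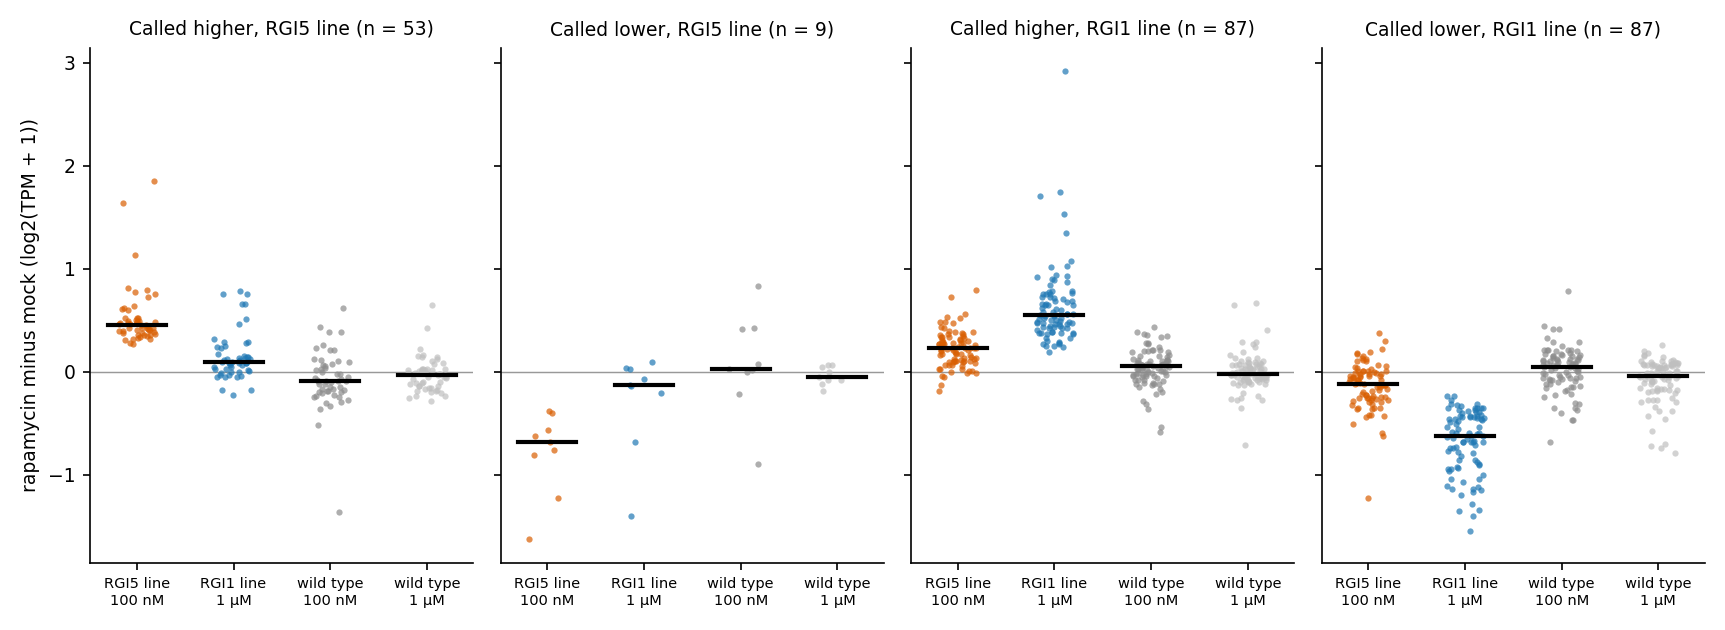
Response to rapamycin (log2(TPM + 1), rapamycin minus mock) of the genes called in the RGI5 line (left pair of panels) and in the RGI1 line (right pair), read in the RGI5 line, the RGI1 line and the wild types of both sets. Each point is a gene and the black bar is the median. The genes called in the RGI1 line have medians of 0.23 and -0.12 in the RGI5 line and close to 0 in wild type.

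The mock and treated levels of each line were also placed beside the wild type of its set. In the RGI5 line the genes called higher stood above wild type under rapamycin in all 53 cases (median 0.29), where 56.0% of all genes tested did, and below it under mock in 47 (median -0.23), where 62.6% did. In the RGI1 line the genes called higher stood above wild type under rapamycin in 78 of 87 cases (median 0.21), where 34.0% of all genes did, and below it under mock in 74 (85.1%, median -0.30), a share near the 75.8% of all genes. Those called lower in the RGI1 line stood below wild type under rapamycin in 86 of 87 (median -0.50), where 66.0% of all genes did, and had a median of 0.04 under mock. Since these genes were chosen for a difference between the mock and treated groups, part of this spread to both sides is built in, and the medians over all genes tested were 0.02 under rapamycin and -0.04 under mock in the RGI5 line, and -0.05 under rapamycin and -0.09 under mock in the RGI1 line.

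The lines were compared by gene groups chosen for their function. In the groups below the test of the difference called no member, so each statement gives the counts within the lines and the medians side by side. Over all genes tested the median response was 0.06 in the RGI5 line and 0.03 in the RGI1 line, and the median difference 0.03. The counts called in each group stand beside these shares of all genes tested. In the RGI5 line 0.27% were called higher and 0.0459% lower, and in the RGI1 line 0.444% each way.

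**Figure D5:**
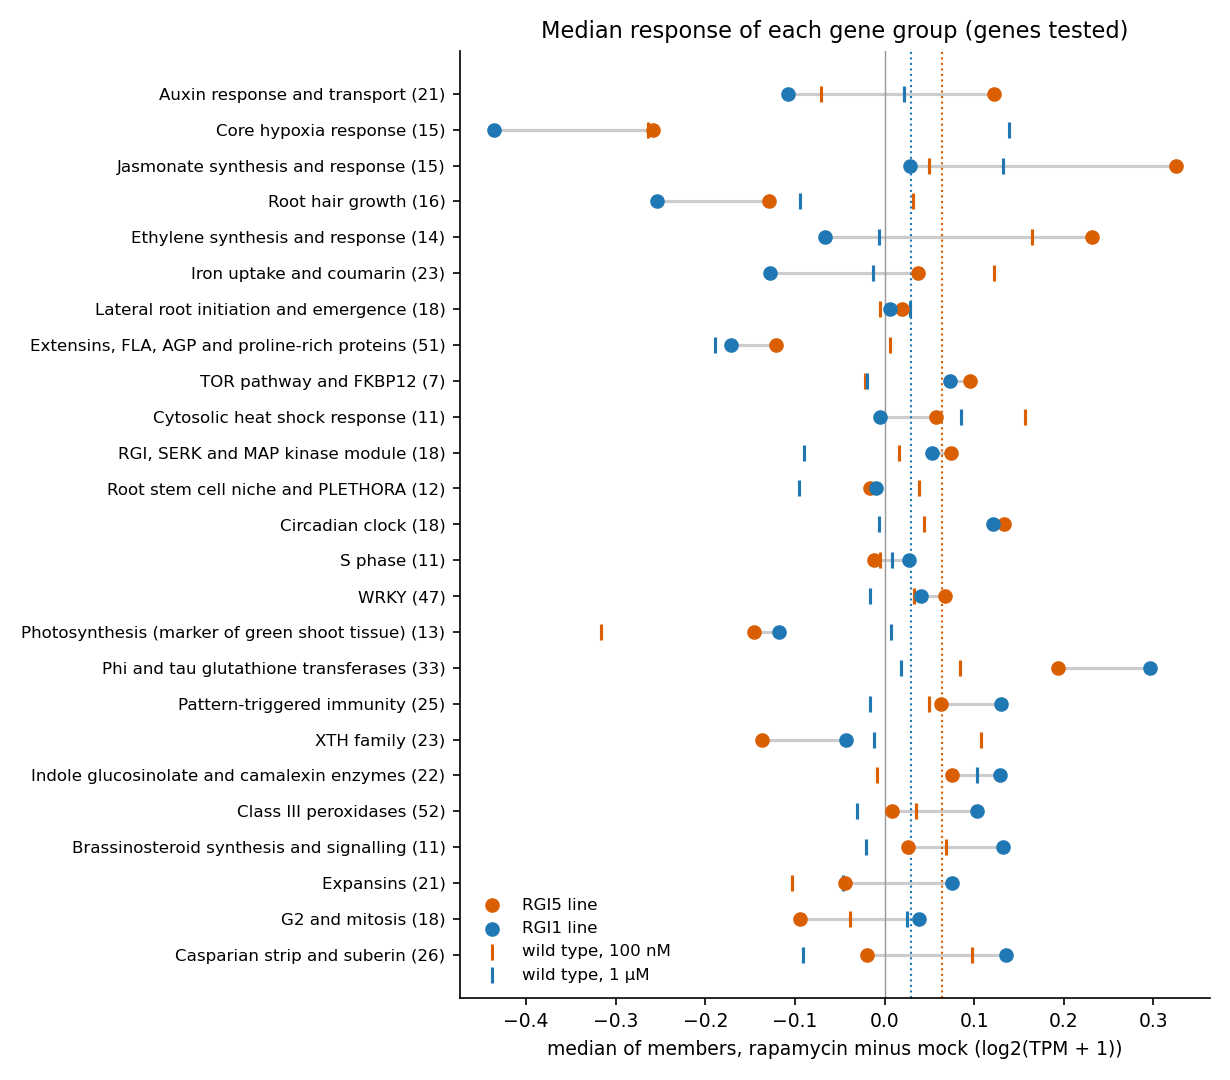
Median response to rapamycin of the tested members of each gene group (number tested in brackets) in the RGI5 line and the RGI1 line (filled circles) and in the wild types given 100 nM or 1 µM (ticks), on the log2(TPM + 1) scale. Dotted lines are the medians of all genes tested in each line, 0.06 and 0.03. Auxin, jasmonate and ethylene genes have higher medians in the RGI5 line, and Casparian strip and suberin genes a higher median in the RGI1 line. For ethylene genes the wild types have the same order, with 0.16 at 100 nM and -0.01 at 1 µM.

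Glutathione transferases of the phi and tau classes, which conjugate glutathione to toxins and stress products, rose in part in both lines. In the RGI5 line 2 of 33 members were called higher (GSTU4 and GSTU1) with a median of 0.19, and in the RGI1 line 6 were (GSTU4, GSTU1, GSTU8, GSTU24, GSTF6 and GSTF7) with a median of 0.30. GSTU24 stood at 60.4 ± 7.0 against 40.5 ± 3.5 TPM in the RGI5 line (0.56, adjusted p = 0.0598), while the RGI1 line had 54.7 ± 5.3 against 35.3 ± 4.3 TPM (0.62, adjusted p = 0.0249), so the values were close although only 1 of them passed. The wild-type medians were 0.08 and 0.02 at 100 nM and 1 µM. After quantile normalization no member was called in the RGI5 line and 5 were in the RGI1 line.

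The phi pair GSTF6 and GSTF7 had the largest gap between the lines among the named transferases. GSTF6 stood at 217, 192 and 403 TPM with rapamycin and at 189, 213 and 397 TPM with mock in the RGI5 line, and at 368, 331 and 354 TPM against 121, 110 and 91.5 TPM in the RGI1 line. In the RGI5 line 1 library of each treatment was high and the groups overlapped, while in the RGI1 line the mock libraries lay below all other libraries of either line and of wild type, whose values ran from 187 to 328 TPM. The response was 0.02 in the RGI5 line and 1.71 in the RGI1 line (adjusted p = 0.0186), and the difference of -1.68 (95% confidence interval -2.55 to -0.82) was not called (adjusted p = 0.229). GSTF7 had responses of 0.13 and 1.54 and a difference of -1.40 (adjusted p = 0.345). The 2 genes are close copies, so reads may be divided between them.

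Some genes of root hair growth fell in the RGI1 line, and the group had medians below 0 in both lines. Root hairs are single-cell outgrowths of the epidermis whose tips extend by secretion of loosened wall. In the RGI5 line 0 of 16 members were called, with 11 below 0 and a median of -0.13, and in the RGI1 line 5 were called lower (EXPA18, PRP3, PRP1, MOP10 and LRX1), with a median of -0.25. Over all genes tested 30.9% stood below 0 in the RGI5 line, and 0.444% were called lower in the RGI1 line. The wall protein PRP3 stood at 10.08 ± 0.64 against 12.4 ± 2.9 TPM in the RGI5 line (-0.26, adjusted p = 0.458), while the RGI1 line had 8.28 ± 1.5 against 19.8 ± 3.5 TPM (-1.17, adjusted p = 0.0115), for a difference of 0.91 (adjusted p = 0.265). EXPA18 stood at 75.1 ± 7.7 against 82.1 ± 3.9 TPM in the RGI5 line and at 59.8 ± 0.81 against 82.3 ± 2.2 TPM in the RGI1 line, with responses of -0.13 and -0.45. The wild-type median was 0.03 at 100 nM and -0.09 at 1 µM, and at 1 µM all 16 members stood below 0, beside 56.8% of all genes tested and a median over all genes of -0.01.

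More wall genes were called lower in the RGI1 line than in the RGI5 line, while the medians did not keep 1 order. Of 51 extensins, fasciclin-like, arabinogalactan and proline-rich proteins, 2 were called lower in the RGI5 line (FLA6 and FLA9, median -0.12) and 10 in the RGI1 line (median -0.17), FLA6 in both. The median was 0.01 in wild type at 100 nM and -0.19 at 1 µM, where 46 of 51 stood below 0, beside 56.8% of all genes tested there, and none was called. The glycoprotein gene HRGP1, as an example, had responses of -0.42 and -1.28 in the lines and -0.40 and -0.70 in wild type at 100 nM and 1 µM. In the XTH family, enzymes that cut and rejoin xyloglucan in the wall, 0 of 23 members were called in the RGI5 line, with a median of -0.14, and 4 were called lower in the RGI1 line (XTH12, XTH13, XTH14 and XTH26), with a median of -0.04.

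XTH26, a wall enzyme of root hairs, stood at 12.1, 19.5 and 14.1 TPM with rapamycin and 26.3, 23.0 and 9.53 TPM with mock in the RGI5 line. It stood at 18.8, 14.8 and 23.1 TPM with rapamycin in the RGI1 line, against 51.9, 58.1 and 58.4 TPM with mock. The mock libraries of the RGI1 line were the highest of all, and the groups overlapped in the RGI5 line. The responses were -0.25 and -1.54 (limma adjusted p = 0.695 and 0.0359), and the difference of 1.29 had a confidence interval from 0.38 to 2.20 and an adjusted p of 0.368. In wild type the response of XTH26 was 0.79 at 100 nM and 0.11 at 1 µM. With the same difference between the wild types taken away, 0.61 was left (SE 0.67). XTH13, with 20.07 ± 4.3 against 27.9 ± 7.5 TPM in the RGI5 line and 23.5 ± 2.2 against 53.0 ± 3.0 TPM in the RGI1 line, had the same shape, with mock roots of the RGI1 line at the top.

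The class III peroxidases, which use hydrogen peroxide to stiffen or loosen the wall, were taken by their annotation as peroxidase superfamily proteins, which also takes in DOX1, an alpha-dioxygenase. Of 52 tested, 0 were called in the RGI5 line, where 12 had an unadjusted p under 0.05, and 5 were called higher and 4 lower in the RGI1 line. AT1G05240 stood at 262.4 ± 6.3 against 317.8 ± 37 TPM in the RGI5 line (-0.27, adjusted p = 0.12), while the RGI1 line had 189.8 ± 9.2 against 302.5 ± 6.9 TPM (-0.67, adjusted p = 0.003). DOX1 stood at 636 ± 114 against 543 ± 123 TPM in the RGI5 line (0.23) and at 762 ± 120.1 against 372 ± 29 TPM in the RGI1 line (1.02, adjusted p = 0.0173).

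Jasmonate genes were called in the RGI5 line alone, although the difference was not called for any. JAZ proteins repress the jasmonate response and are themselves induced by the hormone. In the RGI5 line 2 of 15 members rose, JAZ6 and JAZ2, 14 stood above 0 and the median was 0.32, and in the RGI1 line 0 were called, 8 stood above 0 and the median was 0.03. Of all genes tested 69.1% stood above 0 in the RGI5 line and 61.2% in the RGI1 line. JAZ6 stood at 33.3 ± 1.5 against 23.9 ± 1.1 TPM in the RGI5 line (0.46, adjusted p = 0.0114), while the RGI1 line had 32.9 ± 0.99 against 30.5 ± 1.4 TPM (0.10, adjusted p = 0.586), with a difference of 0.36 (adjusted p = 0.213). JAZ2 stood at 60.1 ± 1.7 against 46.6 ± 0.85 TPM and at 57.7 ± 2.4 against 54.0 ± 1.8 TPM, with responses of 0.36 and 0.09. For both genes the mock level of the RGI5 line was the lowest of the 4 groups. JAZ10 had the widest gap in the group, 0.53 in the RGI5 line and -0.29 in the RGI1 line, with no call in either. In wild type the median was 0.05 at 100 nM and 0.13 at 1 µM. After quantile normalization and after median-ratio scaling 1 member was called in the RGI5 line and 0 in the RGI1 line.

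Auxin response and transport genes leaned apart without a call. Of 21 members 20 had a positive difference, with a median of 0.29, from medians of 0.12 in the RGI5 line and -0.11 in the RGI1 line, where 57.9% of all genes had a positive difference. IAA2, an early auxin-induced repressor, stood at 130, 114 and 132 TPM against 104, 99.2 and 113 TPM in the RGI5 line and at 131, 143 and 141 TPM against 162, 184 and 173 TPM in the RGI1 line. Treated libraries lay above mock in the RGI5 line and below mock in the RGI1 line with no overlap in either, with responses of 0.24 (adjusted p = 0.156) and -0.32 (adjusted p = 0.0699) and a difference of 0.56 (confidence interval 0.34 to 0.79, adjusted p = 0.157). IAA2 was among the genes named by the rule that asked for groups without overlap in a line. The auxin medians in wild type were -0.07 at 100 nM and 0.02 at 1 µM, and under quantile normalization and median-ratio scaling 17 and 16 of the 21 differences were positive.

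Regulators of lateral root initiation, the process named in the title of the series, passed the test in 1 case. IAA28, an auxin-response repressor that acts in the choice of founder cells, was called higher in the RGI5 line at 124.2 ± 5.5 against 96.2 ± 7.3 TPM (0.37, adjusted p = 0.0396), and had 101.6 ± 5.0 against 91.4 ± 2.8 TPM in the RGI1 line (0.15, adjusted p = 0.381). No gene kept a call in the RGI5 line with replicate blocks or with the RGI5 set in a fit of its own. GATA23, which acts after IAA28 in founder cells, stood at 3.99 ± 1.6 against 3.88 ± 0.94 TPM in the RGI5 line and at 7.59 ± 0.99 against 4.96 ± 0.95 TPM in the RGI1 line, with a difference of -0.54 (confidence interval -1.19 to 0.12). LBD29, a transcription factor downstream of auxin, had responses of 0.12 and -0.30 and a difference of 0.42 (confidence interval 0.09 to 0.75, adjusted p = 0.41). For LBD16 the difference was -0.07 (confidence interval -0.40 to 0.25), for LBD18 0.01 (-0.45 to 0.47) and for PUCHI 0.18 (-0.29 to 0.65). None of these 5 was called in either line.

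Transcripts of PLT1, PLT2 and RITF1, which act downstream in the RGF pathway, were not called in either line. These are RNA levels, and the proteins were not measured in these libraries. PLT1 and PLT2, the PLETHORA factors of the stem cell niche, had group means between 5.37 and 6.96 TPM, with a difference of -0.07 (confidence interval -0.37 to 0.22) for PLT1 and an interval from -0.44 to 0.44 for PLT2. RITF1, a transcription factor induced by RGF1 in the meristem, had responses of 0.22 and 0.19. Of 12 tested genes of the stem cell niche none was called in either line. Among 18 receptors, co-receptors and MAP kinase genes SERK4 alone was called, in the RGI1 line. It had 9.71 ± 0.24 against 9.99 ± 0.29 TPM in the RGI5 line and 9.48 ± 0.19 against 7.49 ± 0.15 TPM in the RGI1 line (0.30, adjusted p = 0.0362). Here again the mock roots of the RGI1 line were the group that stood apart.

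Several groups had mostly negative differences, none of them called, while 57.9% of all genes tested had a positive one. Among them were indole glucosinolate and camalexin enzymes (18 of 22), expansins (15 of 21) and pattern-triggered immunity genes (16 of 25). The lean was thus not particular to the 2 groups given next. All 18 genes of G2 phase and mitosis had a negative difference, the largest for the cyclin CYCA1;1 at -0.32 (adjusted p = 0.345), and their medians were -0.09 in the RGI5 line and 0.04 in the RGI1 line. Each of the 18 differences was negative after quantile normalization and after median-ratio scaling as well, while the 11 genes of S phase had a median difference of -0.04. Of 26 genes of the Casparian strip and suberin, the barriers of the endodermis, 21 had a negative difference, with medians of -0.02 in the RGI5 line and 0.14 in the RGI1 line, where the fatty acid reductase FAR5 was called higher (0.43, adjusted p = 0.0442). In wild type the suberin median was 0.10 at 100 nM and -0.09 at 1 µM, the opposite order. Members of such a group share regulation and libraries, so their number is not a number of replicates.

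Core hypoxia genes, which low oxygen induces, had a median of -0.26 in the RGI5 line and -0.44 in the RGI1 line. Wild type at 100 nM also had a median of -0.26, with 13 of 15 members below 0, beside 51.6% of all genes tested. Wild type at 1 µM had a median of 0.14. The transcription factor ERF73 was the member called, in the RGI1 line. It stood at 35.7 ± 3.9 against 40.3 ± 12 TPM in the RGI5 line, and at 18.4 ± 0.89 against 36.9 ± 4.8 TPM in the RGI1 line (-0.96, adjusted p = 0.0269). The alcohol dehydrogenase ADH1 had responses of -0.46 and -0.83 and was not called. Ethylene genes had medians of 0.23 and -0.07 in the lines. In wild type they had 0.16 at 100 nM and -0.01 at 1 µM, the same order. ERF5 had 0.35 (limma adjusted p = 0.0772) in the RGI5 line and was called in the RGI1 line (0.49, adjusted p = 0.0166). CYP71A12, an enzyme of indole-derived defence compounds, stood at 0.865, 1.95 and 22.1 TPM against 0.689, 0.221 and 4.62 TPM in the RGI5 line and at 9.17, 7.86 and 7.05 TPM against 1.92, 2.02 and 1.05 TPM in the RGI1 line, so a single treated library carried the mean of the RGI5 line, and the difference of -0.63 had an interval from -2.98 to 1.72.

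The comparison was repeated with the wild types taken away, as the difference between the lines minus the same difference between their wild types, in a fit of 24 libraries. Limma called 0 of 20014 genes (0%), with 1806 (9.02%) at an unadjusted p under 0.05 and a smallest adjusted p of 0.0842. AT3G26539, SULTR1;1 and the pectin lyase-like gene AT3G07010 shared that smallest value. For AT3G26539 the difference was 3.6, since the same difference between the wild types was -1.79. Without mock replicate 4 of the wild type of the RGI5 set the count was 16, and with all 30 libraries in a fit it was 3. The standard error of the median gene rose to 0.20, beside 0.14 for the lines alone. The other genes that the rule named were AT4G22230, IAA2 and the leucine-rich repeat kinases AT3G14840 and AT5G10290 among positive differences, and AT1G76728, AT4G06477, the chitinase gene AT2G43620, AT3G16020 and AT4G17280 among negative ones, none of them called. The wild types by themselves had 17 genes called at 100 nM (0.0849%), 3 of them higher (0.015%), and 1 at 1 µM (0.005%), where 764 (3.82%) had an unadjusted p under 0.05. Their responses differed at the adjusted threshold for 0 genes (0%), with 1573 (7.86%) at an unadjusted p under 0.05.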

How the data were processed

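RNA of 30 root samples was sequenced by the submitters, and the 12 libraries of both engineered lines, with the 12 of their wild types, were used here. Samples were grouped by genotype, treatment and set as the labels give them. The deposited values are TPM per transcript model. Salmon and DESeq2 are named in the submitters' processing notes. A transcript annotation or build is not given in the sources used here. No counts were used, so no count model was run and no depth or counting interval can be given. The TPM of 40812 transcript models were summed to 32753 loci, of which 32048 matched RefSeq TAIR10.1 for product names only.

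Tests used limma 3.58.1 in R 4.3.3 on log2(TPM + 1), with a trended variance, over genes with at least 1 TPM in at least 3 libraries of the fit and Benjamini-Hochberg adjustment over all genes tested. Fold changes on this scale understate those of low genes. The fit of the lines held 4 group means in 12 libraries, and the fit with both wild types 24 libraries. The code was tested on simulated data. Replicate numbers shared within a line were checked by the correlation of their deviations from group means, which lay between -0.02 and 0.04. Libraries with unlike numbers ranged from -0.10 to 0.10. So few pairs cannot exclude a shared batch, and the main fit did not pair the samples.

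The members, lists and tests were chosen with earlier results of these data known. The text names the called genes with the highest and lowest differences, filled up to 6 in each direction by smallest p among genes that averaged 1 TPM or more and whose treatment groups did not overlap in a line, the genes called in both lines, called members of each list, and a fixed set of pathway genes. JAZ6, JAZ2, PRP3, EXPA18, ERF5, AT1G47915 and other list members outside that rule were named after their values were seen. The alternatives were 2 other scalings, no filter or a filter on the mean at 5 TPM, a pseudocount of 0.1 or 5, replicate blocks, an absolute log2 difference of at least 1, larger fits and leaving out each library. Array weights by set, and each line fitted with its own wild type, were chosen after seeing the data. No sequences are printed.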

Additional observations from a re-analysis of the deposited data

Results flagged for a closer look

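AT3G26539 was flagged because the responses of the lines differed by the test of the difference itself, by 1.81 on the log2(TPM + 1) scale (SE 0.22, limma adjusted p = 0.0338, 95% confidence interval 1.32 to 2.30). All 3 treated libraries of the RGI5 line lay above its 3 mock libraries, and the groups of the RGI1 line overlapped. The test used the same libraries, and the rule for naming asked for groups without overlap in a line. The separation is therefore no further support. Its levels in wild type ran from 9.63 to 66.4 TPM, a wider range than in the lines. AT1G76728 passed the same threshold, with a difference of -2.92, but it was tested only because of the 3 libraries in which it is high, and the other groups are exact zeros, so its p-value is not evidence of a difference. It was above 0 in the 3 treated libraries of the RGI1 line, in no other library of the lines and in 1 of 12 wild-type libraries.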

How the results depend on the processing

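The count of 2 genes with different responses was 1 after quantile normalization, after median-ratio scaling, with a filter on the mean at 5 TPM and with a pseudocount of 5, 4 with a pseudocount of 0.1, with 24 libraries and with all 30 libraries in a fit, 5 without the filter, and between 0 and 6 in fits without a library, with 6 without rapamycin replicate 3 of the RGI5 line and 0 without each rapamycin library of the RGI1 line. The 62 calls in the RGI5 line became 27 after quantile normalization, 21 after median-ratio scaling, 25 without the filter, 5 at an absolute log2 difference of at least 1, 10 with array weights by set and 0 with the RGI5 set in a fit of its own, and between 3 and 79 without a library (3 without its mock replicate 2, 79 without its mock replicate 4). The 174 calls in the RGI1 line became 82 without the filter, 23 at an absolute log2 difference of at least 1, 362 with all 30 libraries, 567 with array weights and 796 with the RGI1 set in a fit of its own, and between 10 and 318 without a library. Leaving out any of the 6 libraries of the RGI1 line gave 10 to 63, and leaving out mock replicate 4 of the RGI5 line gave 318. Taking wild type into account gave 0 calls in most fits, 3 with all 30 libraries and 0 to 16 without a library, and the wild-type difference gave 0 to 2 without a library. With the replicate number as a block, over both sets or within each set, the difference had 1 and 0 calls, the RGI5 line 0 and 0, the RGI1 line 35 and 6, and the wild-type difference 11 and 6. The labels do not say what the numbers share, and leaving out libraries or adding block terms also lowers the residual degrees of freedom, 8 in the fit of the lines. Of values of single named genes under the alternatives, 18 of the difference, 146 of the RGI5 line and 107 of the RGI1 line lost their call, 7, 0 and 2 gained one, and none changed direction while called. The cause of the other shifts was not tested. With TPM the read depth behind each value is unknown.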

Other observations

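Some groups chosen for their function had no call in either line and no difference called. These were pattern-triggered immunity (25 tested genes, medians 0.06 in the RGI5 line and 0.13 in the RGI1 line), indole glucosinolate and camalexin enzymes (22 genes, 0.08 and 0.13), iron uptake and coumarin genes (23 genes, 0.04 and -0.13), brassinosteroid genes (11 genes, 0.03 and 0.13), cytosolic heat shock genes (11 genes, 0.06 and -0.01) and genes of the TOR pathway, the cellular target of rapamycin (7 genes, 0.10 and 0.07). Among WRKY transcription factors, many of which act in defence, 0 of 47 were called in the RGI5 line, with a median of 0.07, and 2 were called higher in the RGI1 line, WRKY45 (1.08, adjusted p = 0.0181) and WRKY42 (0.56, adjusted p = 0.044), with a median of 0.04. Of 21 expansins EXPA18 was the 1 called, in the RGI1 line. Of 18 clock genes PRR3 was called beside FKF1, in the RGI1 line (0.56, adjusted p = 0.038). The adjusted p values are limma's over all genes tested, of which 0.316% were called in the RGI5 line and 0.887% in the RGI1 line.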
